A study of Arabidopsis thaliana with 4 samples.

Results

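The 554 tiles of plates TA29 to TA34 were examined out of 21732 measured features of an Arabidopsis thaliana tiling array. In the order of the feature codes these 6 plates lie between a pair of plate runs with high scores, TA22 to TA28 (623 tiles) and TA35 to TA51 (1544 tiles). The plates were chosen by code as the stretch between these runs, on the values of these same arrays. Each had a median under 0.1 score units, counted from the array median, in at least 1 replicate. This also held for TA27, TA36 and TA48 in the flanking runs, so it does not by itself set the 6 plates apart. Their level and their distance from the flanking runs are therefore given as a description, without a test. The arrays compared chromatin immunoprecipitated with an antibody against histone H3 (from Upstate) with its own input DNA. The plants were untreated 10 day old whole seedlings of the reference ecotype Col-0, grown in liquid medium, and they formed 1 group. Every precipitate came from this wild type, with no mutant, treated or second-tissue group beside it. The group held 2 replicates, each hybridised on a pair of arrays with the Cy3 and Cy5 dyes exchanged, which gave 4 arrays. The labels do not tell whether the replicates were separate cultures, so the spread between them may be technical.

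Histone H3 is a core protein of the nucleosome, the spool around which DNA is wound. An antibody against H3 itself, as opposed to one against a modified H3, reports where nucleosomes are present. In plants, nucleosomes are generally sparse over the promoters of active genes and dense over the condensed chromatin around centromeres. A chromatin preparation from whole seedlings averages over all their cell types, and the number of nucleosomes at a site and the share of cells that carry them cannot be told apart.

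The deposited value is a ratio score between the precipitated and the input channel. The base of its logarithm and the channel that forms the numerator were not settled by the sources used here. "Above" and "below" the array median are therefore positions of the score, and neither stands for more or less H3. The arrays of each dye swap held identical values at all 21732 features, so every tile had 1 value per replicate and n = 2. Before centring, the median over all features was 0.23 in replicate 1 and 0.13 in replicate 2, and these were subtracted. A tile is named by its plate, its row letter and its well. None of the 554 codes (0 matches) was found in the gene table for assembly TAIR10.1, so no gene, position or sequence is given for a tile.

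The 554 tiles as a whole lay at the array median. Their median score was 0.011 units in replicate 1 and 0.007 in replicate 2, a mean of 0.009 ± 0.002 (SD, n = 2). This joint value hid a net fall from TA29 to TA33, which was larger in replicate 2, and a rise from TA33 to TA34. In plate TA29 the median was 0.099 units in replicate 1 and 0.31 in replicate 2. Plate TA30 had medians of 0.11 and 0.07. From there on the plates lay within 0.1 units of the array median, except TA33 in replicate 2. Plate TA31 had medians of 0.03 and -0.05, and plate TA32 of -0.01 in both. The lowest was plate TA33, with -0.05 in replicate 1 and -0.18 in replicate 2. Plate TA34 had a median of -0.02 in both replicates. The replicates thus gave nearly equal medians in TA32 and TA34 and differed most in TA29. Among all 231 plates of the array, ordered from the highest median, TA29 ranked 33, TA30 ranked 52, TA31 ranked 107, TA32 ranked 116, TA34 ranked 123 and TA33 ranked 191.

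The description of the interval as lying between high plates held for TA31 to TA34 and did not hold for TA29. TA28, the last plate of the first run, had medians of 0.105 and 0.33, close to the 0.099 and 0.31 of TA29. TA29 missed 0.1 units in replicate 1 alone, and TA30 missed it in replicate 2 alone. At the other end, TA35 had medians of 0.102 and 0.14, just past 0.1 in both replicates, against -0.02 and -0.02 in TA34. Of the 231 plates, 37 (16.0%) were at or over 0.1 units in both replicates and 18 (7.79%) at or under -0.1. None of the 6 plates (0) was among either, but the plates were chosen on these scores. Without TA29 the median of the other 477 tiles was -0.03 ± 0.04 (SD, n = 2).

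**Figure D1:**
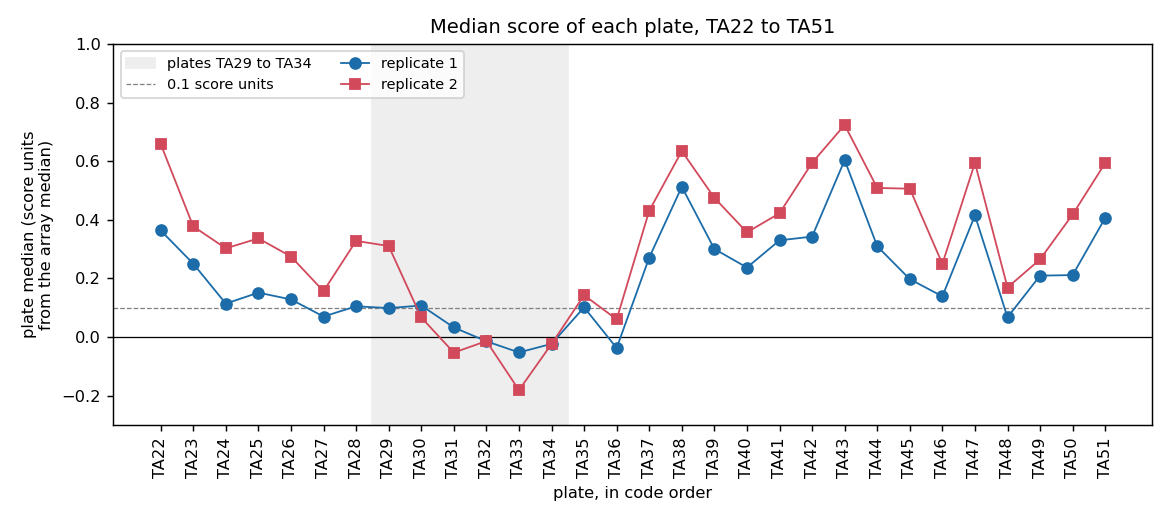
Median score of each plate from TA22 to TA51 in code order, in score units from the array median, with replicate 1 as blue circles and replicate 2 as red squares; the grey band marks TA29 to TA34. TA29 (0.099 and 0.31) sits with the plates to its left, and the medians of both replicates reach their lowest value within the band at TA33.

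By rows of 12 wells, the largest step of the 6 plates lay inside TA30 and not at a plate limit. In TA29 the row medians lay between 0.03 and 0.27 units in replicate 1 and between 0.08 and 0.50 in replicate 2, and none of its 8 rows had a median below the array median in either replicate. Row G of TA29 had medians of 0.27 and 0.50, and row A of TA30 had 0.27 and 0.57. Row B of TA30, the next in the code, had -0.06 and -0.38. This step of -0.33 units in replicate 1 and -0.95 in replicate 2 ranked 14 in size among the 1823 steps between successive rows on the array. In replicate 1 row B only returned to about the array median, while in replicate 2 it went well under it. The score did not stay low after it: row G of TA30 had medians of 0.19 and 0.44, row H 0.15 and 0.17, and row A of TA31 0.13 and 0.22. No other step between successive rows within these 6 plates was as large. The next were the fall from row C to row D of TA34, by 0.31 and 0.76 units, and the rises to row C of TA34 and to row D of TA33.

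Of the 48 rows in the 6 plates, 10 had medians of 0.1 units or more in each replicate and 7 had medians of -0.1 or less in each. Over the 1828 rows of the array these shares were 18.5% above and 19.7% below. The high rows were 5 in TA29, 3 in TA30 (rows A, G and H), row A of TA31 and row C of TA34. The low rows were C, E and G of TA33 and B, D, E and F of TA34. In TA32, 0 of 8 rows passed 0.1 on either side in both replicates, and its row medians over the replicates spanned -0.13 to 0.05 units. TA33 had 0 high and 3 low rows, and TA34 had 1 high and 4 low rows.

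**Figure D2:**
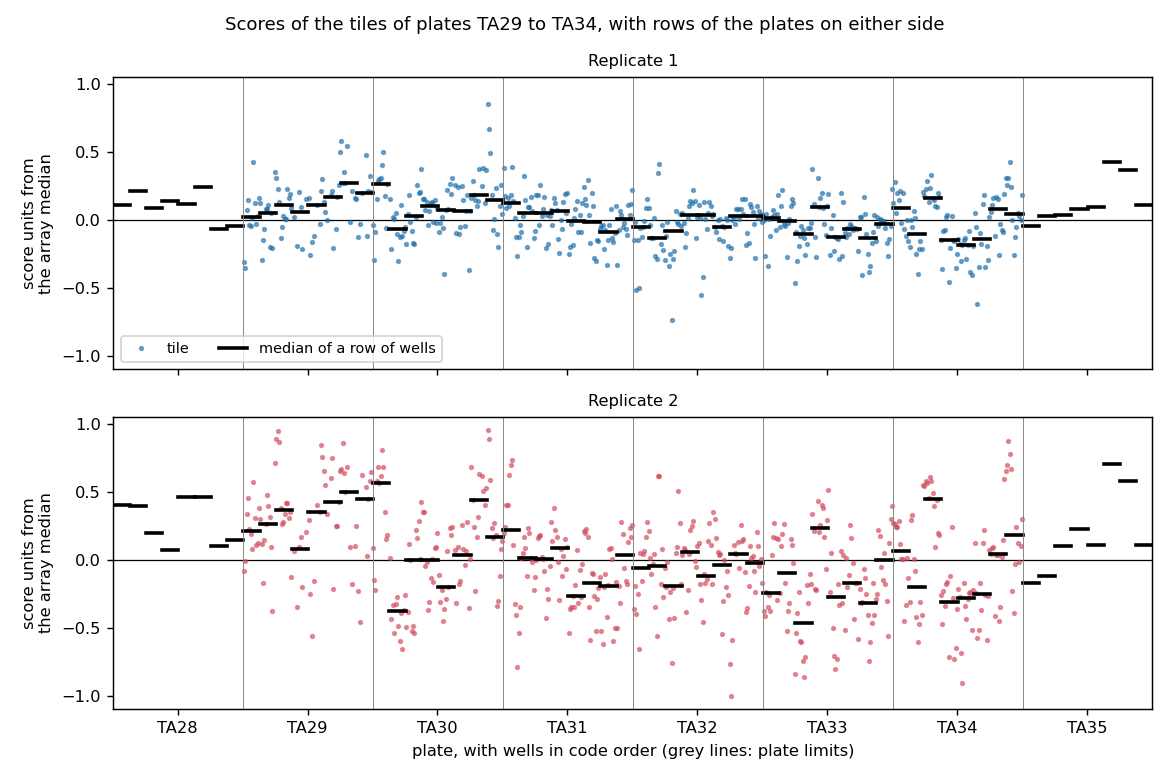
Score of every tile of TA29 to TA34 in code order (points) and the median of each row of up to 12 wells (black bars), in score units from the array median, with replicate 1 in the upper and replicate 2 in the lower panel; for TA28 and TA35 only the row medians are drawn. The drop from row A to row B of TA30 is visible in both panels and is larger in replicate 2 (-0.95 units) than in replicate 1 (-0.33 units).

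Single tiles were scored with limma's moderated test against the array median, fitted on all 21732 features, with Benjamini-Hochberg adjustment at 5%. Of the 554 tiles, 77 (13.9%) were above and 91 (16.4%) were below, against 17.0% and 19.4% of all features. The plates were chosen on these scores, so the counts describe the tiles and support nothing further. All features shared a standard error of 0.111 units, and a mean of 0.26 units from the median was called. The split depended on the centre and on the variance model. Without centring, 191 tiles (34.5%) were above zero and 13 (2.35%) below, against 34.6% and 3.7% of all features. With the trend and robust options of limma's eBayes, 43 (7.76%) were above and 0 below, against 9.95% and 0.175% of all features. The array as a whole thus moved in the same way. In that last fit 97 tiles above and 109 below had an unadjusted limma p under 0.05, against 103 and 124 in the first fit. These unadjusted counts were made for the 554 tiles only. Without the matching shares of all features, they do not tell whether these tiles differ from the array.

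The share of tiles above fell from TA29 to TA32 and rose again to TA34, while the share below was lowest in TA29 and highest in TA33. TA29 had 28 of 77 tiles above and 3 below. TA30 had 19 of 93 above and 11 below. TA31 had 6 of 96 above and 16 below, and TA32 had 2 above and 14 below. TA33 had 5 of 96 above and 24 below. TA34 had 17 above (17.7%) and 23 below (24.0%), not far from the 17.0% and 19.4% of all features. TA29 and TA30 held 30.7% of the tiles and 61.0% of those above. TA33 and TA34 held 34.7% of the tiles and 51.6% of those below. Without TA29, 49 tiles were above and 88 below.

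Tiles above the median lay more often in blocks of 4 or more than tiles below it, which were mostly single or in short blocks. Blocks here are successive measured tiles in code order that were called on the same side, also across row ends and missing wells. The 77 tiles above formed 30 blocks, of which 8 held at least 4 tiles and together 49 of the 77 (63.6%), and 17 were single tiles. The 91 tiles below formed 58 blocks, of which 2 held at least 4 tiles and together 9 of the 91 (9.89%), and 38 were single tiles. A called neighbour on the same side was present for 77.9% of the tiles above and for 58.2% of those below. The mean length of the low blocks was 1.57 tiles, compared with 1.62 in TA22 to TA28 and 1.69 in TA35 to TA51. Low blocks of at least 4 tiles held a larger share of the low tiles there, 21.3% in TA22 to TA28 and 38% in TA35 to TA51. The high blocks had a mean length of 2.57 tiles and a maximum of 9, whereas those of the flanking runs had means of 4.80 and 5.93 and maxima of 36 and 70. On the high side, block length was larger where the share of tiles called above was larger, 45.4% and 56.5% in the flanking runs. The low side did not follow this, as only 7.54% and 6.48% of tiles were below in the flanking runs. No test was made of these differences.

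The longest high block ran over 9 tiles from row B, well 11, to row C, well 7, of TA34. Its mean was 0.21 units in replicate 1 and 0.53 in replicate 2. It began directly after a low tile, at well 10 of row B, and the tile after its end was not called. Row B of the same plate held 4 tiles below, row C held 0 and row D held 5. A block of 8 tiles ran from row G, well 7, to row H, well 3, of TA30, across the empty well 8 of row G, with means of 0.44 and 0.64. It contained the highest tiles of the 6 plates. TA30H01 scored 0.86 in replicate 1 and 0.96 in replicate 2, and its neighbour TA30H02 scored 0.67 and 0.89. At both tiles the replicates differed by less than the tile's distance from the array median.

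Of the other high blocks, 3 with at least 4 tiles lay in TA29. The longest of them covered 7 measured tiles from row F, well 11, to row G, well 5, with means of 0.40 in replicate 1 and 0.63 in replicate 2. The 4 tiles from row B, well 12, to row C, well 3, had means of 0.26 and 0.85, so replicate 2 was much the higher there. The 4 tiles that began at row E, well 10, had means of 0.18 and 0.70. In row A of TA30, 7 tiles from well 3 to well 9 had means of 0.31 and 0.61, and they were the last high block before the step down. Row A of TA31 held 4 tiles with means of 0.21 and 0.62. The last block, of 6 tiles from row G, well 11, to row H, well 4, of TA34, had means of 0.29 and 0.71. This block did not run on into the high tiles of TA35. Rows A to E of TA35 had medians from -0.04 to 0.10 in replicate 1 and from -0.17 to 0.23 in replicate 2. Row F of TA35, the first high row of that plate, had medians of 0.43 and 0.71.

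The low blocks of at least 4 tiles were both in TA33. The 5 tiles from well 4 to well 8 of row C had a mean of -0.12 in replicate 1 and -0.70 in replicate 2, so their call rested mainly on replicate 2. The 4 tiles from well 6 to well 9 of row G had means of -0.28 and -0.55. The lowest tiles stood alone or at a block's edge. TA32C05 scored -0.73 in replicate 1 and -0.76 in replicate 2, with tiles that were not called on either side of it. TA33B12 scored -0.46 and -0.84. Both replicates put these tiles below the array median, with closer values at TA32C05. Neither passed the fit with trend and robust variance (limma adjusted p = 0.0615 and 0.0752), in which 38 features of the whole array were below.

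Of the 554 tiles, 21 (3.79%) had a mean at least 0.5 units above the array median and 10 (1.81%) at least 0.5 below, against 6.65% and 3.23% of all features. None (0) was 1 unit or more away, where the whole array had 42 features (0.193%). The tiles at least 0.5 above were 11 in TA29, 6 in TA30, 2 in TA34 and 1 each in TA31 and TA32. The 10 at least 0.5 below lay in TA31 to TA34. These counts differed by more than 1.5 times between the replicates. Replicate 1 alone gave 6 tiles above (1.08%) and 4 below (0.722%), against 5.01% and 1.1% of all features. Replicate 2 alone gave 53 (9.57%) and 49 (8.84%), against 10.6% and 10.1% of all features.

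The replicates ranked the tiles alike but differed in spread. Across the 554 tiles Pearson's r was 0.77 and Spearman's rho also 0.77, against r = 0.84 over all features. These are correlations across tiles, which share the 2 replicates and are not independent. The SD over the tiles was 0.20 units in replicate 1 and 0.36 in replicate 2. With plate medians removed, replicate 2 spread 1.81 times as widely as replicate 1, compared with 1.59 times over all features, 1.47 times in TA22 to TA28 and 1.37 times in TA35 to TA51. The sign was the same in both replicates at 439 tiles (79.2%), against 81.1% of all features. The replicates were over 0.5 units apart at 30 tiles (5.42%), against 2.44% of all features.

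Among the 6 plates, TA29 had the largest difference between the replicates. Replicate 2 was the higher at 64 of its 77 tiles (83.1%), by a median of 0.18 units, and 9 of its tiles were over 0.5 units apart. A higher replicate 2 was not particular to TA29. In TA28 it was the higher at 72.9% of tiles, by a median of 0.21 units. The shares were 70.5% in TA22 to TA28 and 72.0% in TA35 to TA51, against 48.8% of all features. In TA31 replicate 2 was higher at 32 of 96 tiles, and in TA33 at 30 of 96. The small SD of 0.002 for the joint median of the 6 plates thus came from differences of opposite sign that cancelled. The SD between replicates of a single plate median ranged from under 0.001 in TA34 to 0.15 in TA29.

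**Figure D3:**
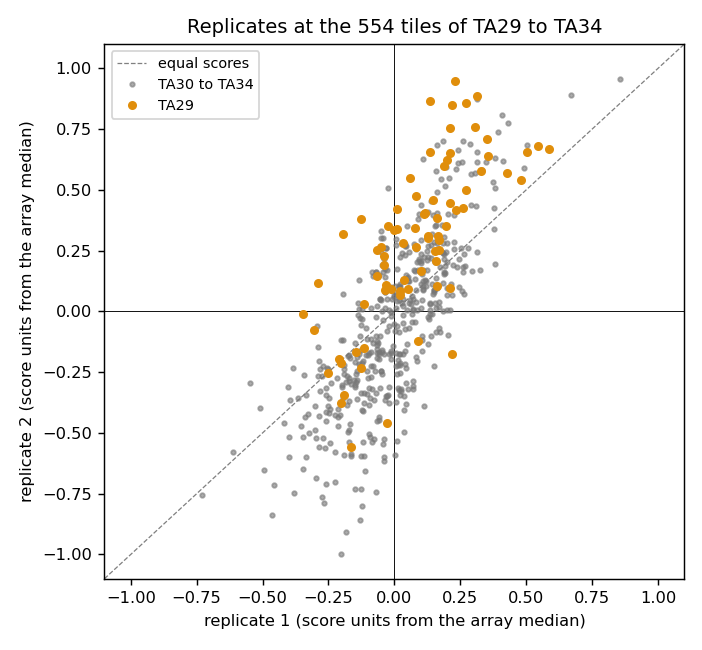
Score in replicate 2 against score in replicate 1 for the 554 tiles, in score units from the array median, with the 77 tiles of TA29 in orange, the 477 tiles of TA30 to TA34 in grey and equal scores as a dashed line. The cloud is steeper than the dashed line, and 64 of the 77 orange points lie above it.

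The 6 plates lay below both flanking runs in each replicate. Their median was lower than that of TA22 to TA28 by 0.13 units in replicate 1 and 0.30 in replicate 2, a mean difference of -0.22 ± 0.12 (SD, n = 2). It was lower than that of TA35 to TA51 by 0.24 and 0.41 units, a mean difference of -0.32 ± 0.12 (SD, n = 2). The flanking runs had 45.4% and 56.5% of their tiles above and 7.54% and 6.48% below, against 13.9% and 16.4% here. These sets were separated by the same scores, so the differences follow from the choice. The plates farther out had shares nearer to those of the 6 plates: TA01 to TA21 had 12.5% of tiles above and 19.7% below, and TA52 to TA99 had 12.5% above and 23.4% below. The same held for the middle of the distribution. From the 25th to the 75th percentile the mean score ran from -0.19 to 0.17 units in the 6 plates, from -0.20 to 0.16 in TA01 to TA21 and from -0.25 to 0.14 in TA52 to TA99. In the flanking runs it ran from 0.01 to 0.45 and from 0.06 to 0.57.

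Successive tiles of the 6 plates had like scores over a short distance. With plate medians removed, tiles 1 well apart in the code correlated with r = 0.58 over 534 pairs. The coefficient was 0.35 at 2 wells, 0.16 at 4 wells and -0.01 at 8 wells. At 12 wells, the same column of the next row, it was 0.04. Between a tile in replicate 1 and the next tile in replicate 2 it was 0.45, so the likeness was also present across separate hybridisations. In TA22 to TA28 the corresponding values for the mean of the replicates were 0.76 at 1 well, 0.39 at 4 and 0.18 at 8, and in TA35 to TA51 they were 0.70, 0.28 and 0.13. In TA01 to TA21 they were 0.60, 0.19 and 0.08, and in TA52 to TA99 0.54, 0.09 and 0.04. The fall-off in the 6 plates was nearer to that of the outer plates than to that of the flanking runs. These coefficients are across tiles that share arrays and replicates, and the differences between them were not tested.

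**Figure D4:**
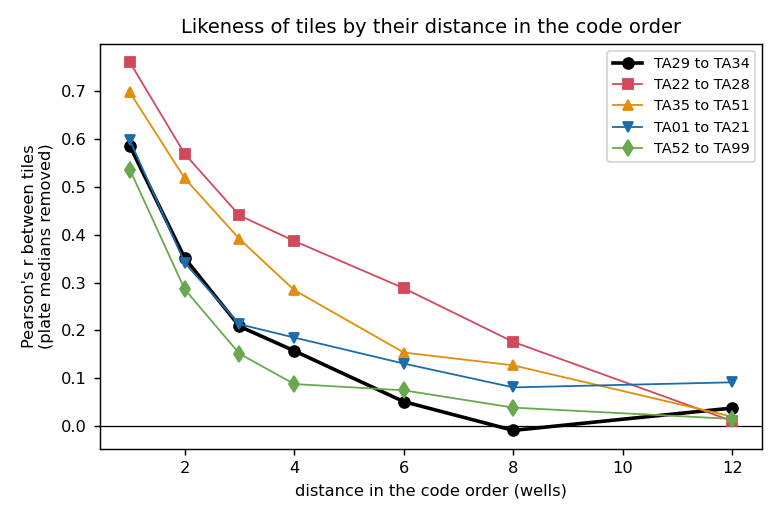
Pearson's r between the scores (mean of the replicates, plate medians removed) of tiles 1 to 12 wells apart in the code order, for TA29 to TA34 (black), the flanking runs (red and orange) and the plates farther out (blue and green). The black line falls from 0.58 at 1 well to -0.01 at 8 wells, whereas the red line of TA22 to TA28 is still at 0.18 there.

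Missing wells were concentrated in the high plate of the interval. Of the 576 wells in the 6 plates, 22 had no value: 19 in TA29, which were not listed, and 3 in TA30, which were listed without a value. Plates TA31 to TA34 were complete. In TA29, rows A to C had 35 measured tiles with medians of 0.05 and 0.31, and rows D to H, where 18 wells were missing, had 42 measured tiles with medians of 0.16 and 0.31. The share of tiles above was 28.6% in rows A to C and 42.9% in rows D to H. In the flanking runs, 36 wells were missing in TA22, 34 in TA38 and 54 in TA39. The medians of these plates ranked 7, 6 and 19 on the array. Plates TA40 to TA51 were complete (0 missing), and their medians ranked from 3 in TA43 to 39 in TA48. Whether missing wells have a part in the score was not tested.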

How the data were processed

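Histone H3 precipitates and inputs from seedlings were amplified and given the Cy3 and Cy5 dyes by direct labelling, per the labels' protocols. The authors deposited a ratio score for each feature and array. Its normalization, logarithm base, centring and numerator, the genome build and the array design were not stated in the labels or in the file. Of 21800 listed features, 21732 had a value on all 4 arrays. Groups and replicates came from the labels. The identical arrays of each dye swap were averaged, and each replicate was centred on its median. The functions lmFit and eBayes of limma (version 3.58.1, R 4.3.3) tested every feature against zero, with p-values adjusted over all features by Benjamini-Hochberg at 5%. The prior degrees of freedom were infinite, so all features shared a residual SD of 0.157. The fit was tested on simulated data, with independent tiles and the same spread in both replicates. The deposited values differ from that setting in both respects, so the simulation does not show how reliable the calls are. Descriptions and plots used Python 3.11.15, numpy 2.4.6, pandas 2.3.3 and matplotlib 3.10.9.

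The plates, the tests and the alternatives were chosen with earlier results of these data known. Single tiles are named by a rule, the 2 highest and the 2 lowest means of the 6 plates. Rows of wells, blocks and distances in the code were described after the values had been seen. The number of arrays limits the precision, and no depth applies.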

Additional observations from a re-analysis of the deposited data

How the results depend on the processing

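Calls among the 554 tiles were 77 above and 91 below (13.9% and 16.4%), against 17.0% and 19.4% of all features. Centring on the mean gave 75 and 95 (13.5% and 17.1%), against 16.5% and 20.1% of all features. Scaling to equal median absolute deviations gave 106 and 116 (19.1% and 20.9%), against 20.1% and 22.6%. Both settings kept both counts within 1.5 times. Quantile normalization gave 122 and 134 (22% and 24.2%), against 22.9% and 25.6% of all features. No centring gave 191 and 13 (34.5% and 2.35%), against 34.6% and 3.7%. An adjusted p of 0.01 gave 57 and 55 (10.3% and 9.93%), against 12.8% and 13.3%. A distance of at least 0.5 as well gave 21 and 10 (3.79% and 1.81%), against 6.65% and 3.23%. Trend and robust variance gave 43 and 0 (7.76% and 0%), against 9.95% and 0.175% (the cause was not tested). With 1 replicate left there is no test, and tiles at least 0.5 units away numbered 6 to 53 above and 4 to 49 below. Replicate 1 alone had 1.08% above and 0.722% below, against 5.01% and 1.1% of all features. Replicate 2 alone had 9.57% and 8.84%, against 10.6% and 10.1%. Leaving out TA29, chosen after seeing the data, gave 49 above and 88 below (10.3% and 18.4%). Leaving out row A of TA30 too gave 42 and 88 (9.01% and 18.9%). The shares of all features stayed at 17.0% and 19.4% in both. The median of 0.009 was 0.19 without centring, 0.0023 when centred on the mean and -0.0001 as a mean over tiles. It was -0.052 over full plates, -0.026 without TA29 and -0.030 without TA29 and row A of TA30. It ranged from 0.007 to 0.011 with 1 replicate left out, and its side of the array median is therefore unsettled. The differences from the flanking runs were negative in each setting run: -0.30 to -0.13 from TA22 to TA28 and -0.41 to -0.24 from TA35 to TA51. No paired analysis was possible because there is 1 group.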

Other observations

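Recut by rows after the values had been seen, the stretch from row B of TA30 to row E of TA35 held 526 tiles. Its median was 0.007 units in replicate 1 and -0.05 in replicate 2, with 46 tiles (8.75%) above and 90 (17.1%) below. The 88 tiles of TA29 and row A of TA30 had medians of 0.12 and 0.31, with 35 (39.8%) above and 3 (3.41%) below. Of all features, 17.0% were above and 19.4% below, so the share below in the stretch from row B of TA30 was near that of the array. The first replicate separated these stretches by less than the second. No test was made, since the limits were set by the scores.

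In rows A to C of TA29, where 35 of 36 wells were measured, replicate 2 was the higher at 32 of 35 tiles, by a median of 0.23 units. Replicate 2 was also the higher at 70.5% of the tiles of TA22 to TA28 and at 72.0% of those of TA35 to TA51. Plate TA36, in the run to the right, had medians of -0.04 and 0.06, so the rise after TA34 was itself interrupted: row F of TA36 had medians of -0.14 and -0.29.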
